A study of Mus musculus with 10 samples.

Results

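The 9 genes described here encode inhibitory and Fc receptors of B cells: Cd22, Siglecg, Cd72, Fcgr2b, Pirb, Fcrl1, Fcrl5, Fcrla and Fcer2a. They were chosen by name, and each matched 1 of the 31053 gene rows of the count matrices. Their levels were followed through splenic germinal center (GC) B cells, non-GC and memory-like B cells, a B cell cluster marked by Sox4 and Pcp4, plasma cells, T cells and myeloid cells, between the zones of the GC, and between genotypes.

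B cells balance the signal of the antigen receptor with membrane proteins that carry an immunoreceptor tyrosine-based inhibitory motif (ITIM). When the kinase Lyn phosphorylates an ITIM, it recruits a phosphatase such as SHP-1 (Ptpn6) or SHIP-1 (Inpp5d), and the calcium and kinase signal of the receptor falls. CD22 and Siglec-G bind sialic acid, CD72 binds semaphorin 4D, FcγRIIB (Fcgr2b) binds IgG in immune complexes and PIR-B (Pirb) binds MHC class I. The Fc receptor-like genes Fcrl1, Fcrl5 and Fcrla belong to the same immunoglobulin-type family as Fcgr2b, and Fcer2a encodes CD23, the low-affinity IgE receptor of mature B cells. Loss of Fcgr2b or of Cd22 is associated with autoantibodies in mice.

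Cells came from the spleens of BXD2 mice, a recombinant inbred strain with spontaneous GCs and autoantibodies. The groups were 3 BXD2-p19-/- mice, which lack the p19 subunit of interleukin-23 (p19-/- 1 and 2 female, p19-/- 3 male), and 2 female BXD2-WT mice, with no age given in the labels used here. Each mouse gave 1 RNA library and 1 B cell receptor (BCR) library with a 5′ droplet kit, and the mouse was the unit of replication. Il23a, which encodes p19, had 0 unique molecular identifier (UMI) counts in all 5 RNA libraries, so its RNA could not check the labels.

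The RNA libraries held 7712457 to 18093053 UMIs in 11355 barcodes, of which 9170 passed filters with a median of 3883 to 5231 UMIs per cell and library. In p19-/- 1, 36.0% of barcodes exceeded the limit of 10% mitochondrial UMIs, against 9.17% to 13.2% in the other 4 libraries. The labels name B and T cells, and both were present, beside 568 macrophage- or monocyte-like cells. Clusters, formed without the 9 genes, gave 3098 GC B-like, 611 mature non-GC B-like, 496 Sox4 Pcp4 B, 268 plasma cell-like, 1973 T follicular helper (Tfh)-like, 920 regulatory T (Treg)-like, 665 other CD4 T-like and 205 CD8 T-like cells. The non-GC B cluster was led by memory-associated genes such as Ccr6 (101 ± 19.6 CPM, against 1.67 ± 0.481 CPM in GC B-like cells; SD, n = 5 mice), Hhex and Zbtb32. Levels are in CPM (UMIs of a gene, scaled to a common total of UMIs, in a class of a mouse), and pairs of libraries shared 1 to 8 cell barcodes.

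Over all cells the counts were 4031 UMIs for Cd22, 2531 for Siglecg, 4581 for Cd72, 2634 for Fcgr2b, 493 for Pirb, 2387 for Fcrl1, 326 for Fcrl5, 6115 for Fcrla and 2081 for Fcer2a. In mm10 coordinates, Cd22, Siglecg and Pirb lie on chromosome 7 (30865404 to 30880342, 43408192 to 43418349 and 3712505 to 3720382). Fcgr2b and Fcrla are both on chromosome 1 (170960558 to 170976071 and 170917594 to 170932216), and Fcrl1 and Fcrl5 on chromosome 3 (87376353 to 87403967 and 87435777 to 87500678). Cd72 lies on chromosome 4 (43447724 to 43455102) and Fcer2a on chromosome 8 (3680280 to 3694174).

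Promoter windows from RefSeq (GRCm38.p6, 250 bases before to 50 after an annotated start) were found for 9 of 9 genes, in 12 windows. The 3 shown belong to genes whose patterns are contrasted below: Cd22, also counted in Tfh-like and myeloid cells, Fcer2a, which split the GC zones, and Fcrla, which remained high in plasma cells. All 3 windows lie inside the gene spans given above and do not reach the end at which the span begins on its coding strand. Letters run 5′ to 3′ on the minus strand, which is the coding strand of all 3, and capitals mark matches to a motif searched on both strands.
Cd22, chr7:30878979-30879278: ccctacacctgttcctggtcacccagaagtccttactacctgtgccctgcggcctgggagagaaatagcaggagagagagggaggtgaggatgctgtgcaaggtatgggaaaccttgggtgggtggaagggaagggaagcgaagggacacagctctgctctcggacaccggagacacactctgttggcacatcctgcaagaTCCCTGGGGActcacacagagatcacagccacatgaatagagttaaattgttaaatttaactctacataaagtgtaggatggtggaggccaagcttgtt
Fcer2a, chr8:3690812-3691111: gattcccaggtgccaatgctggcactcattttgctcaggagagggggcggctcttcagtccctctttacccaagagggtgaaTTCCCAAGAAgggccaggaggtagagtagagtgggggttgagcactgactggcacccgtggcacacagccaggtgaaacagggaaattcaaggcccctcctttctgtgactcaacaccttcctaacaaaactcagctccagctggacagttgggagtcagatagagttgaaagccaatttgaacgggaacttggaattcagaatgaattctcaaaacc
Fcrla, chr1:170927534-170927833: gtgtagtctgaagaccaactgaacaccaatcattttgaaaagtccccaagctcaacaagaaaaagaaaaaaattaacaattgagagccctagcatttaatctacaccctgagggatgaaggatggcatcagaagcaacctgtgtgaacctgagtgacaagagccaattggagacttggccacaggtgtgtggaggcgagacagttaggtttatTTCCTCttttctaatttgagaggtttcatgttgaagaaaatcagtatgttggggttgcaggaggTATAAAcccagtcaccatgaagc
The Cd22 window holds TCCC and GGGA with 2 bases between them, the form bound by EBF1, the early B cell factor, which 0.904% of 32851 promoter windows hold. In the Fcer2a window the match is TTC and GAA with 4 bases between them, the spacing preferred by the interleukin-4 factor STAT6, found in 6.95% of windows. Fcrla's window has GAGGAA, read on the opposite strand (shown as TTCCTC), the core bound by ETS factors such as PU.1 (28.3% of windows). It also has TATAAA, the letters of a TATA box (13.6%), but within the last 50 bases of the window, after the start. Among the 12 windows, 5 held GAGGAA (Cd72, Fcrl1, Fcrla, Pirb and Siglecg) and 4 held TATAAA (Fcer2a, Fcrl1, Fcrl5 and Fcrla). Of the 3 Fcer2a windows, the one shown holds the STAT6-type match, the TATAAA is in another and the remaining one has no match. A match describes letters and is not a shown binding site.

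Levels were lower in GC B-like than in mature non-GC B-like cells for 8 of the 9 receptors. Fcrl1 was the exception in direction, and Fcrl5 and Pirb were close to absent from GC B-like cells. In this comparison 54% of 9031 tested genes were called at an adjusted p of 0.05, and 27% of all tested genes were called lower in GC B-like cells, so a call alone did not set the receptors apart.

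Among the ITIM lectins, Cd22, the sialic acid-binding partner of the antigen receptor, stood at 204, 198 and 159 CPM in non-GC B-like cells of p19-/- 1 to 3 and at 198 and 194 CPM in WT 1 and 2. The corresponding GC B-like levels of Cd22 were 77.0, 64.8 and 63.1 CPM and 71.2 and 69.3 CPM. Every mouse was lower in its GC B-like cells, with no overlap between the classes, at a log2 fold change of -1.63 (SE 0.08, adjusted p = 1.28e-08 in edgeR's quasi-likelihood test with Benjamini-Hochberg adjustment, mouse as a block). Siglecg, the second sialic acid-binding lectin, went from 105, 90.6 and 89.4 CPM and 86.3 and 97.8 CPM in non-GC to 47.5, 56.5 and 51.9 CPM and 62.3 and 51.2 CPM in GC B-like cells. It fell by 0.97 on the log2 scale (SE 0.11, edgeR adjusted p = 1.67e-05). Cd72, a C-type lectin, went from 243, 163 and 299 CPM and 227 and 189 CPM to 98.8, 78.1 and 93.6 CPM and 87.1 and 71.2 CPM. Every GC value was below every non-GC value, and the log2 fold change was -1.55 (SE 0.09, edgeR adjusted p = 5.35e-08).

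Of the immunoglobulin-type ITIM receptors, Fcgr2b, the inhibitory IgG receptor, was at 119, 75.8 and 124 CPM and 89.6 and 88.3 CPM in non-GC B-like cells. In GC B-like cells it was at 34.4, 44.7 and 50.6 CPM and 40.8 and 32.8 CPM, lower in 5 of 5 mice (log2 fold change -1.46, SE 0.13, edgeR adjusted p = 2.33e-06). Pirb, the MHC class I-binding member, had 4.37 to 16.6 CPM in the non-GC B-like cells of the 5 mice and 7 UMIs in all 3098 GC B-like cells (0.131 ± 0.183 CPM, n = 5). Reads of Pirb may be split or shared with its near-identical paired receptor genes, so its level is uncertain. Extracellular sequence of Fcgr2b resembles that of Fcgr3, which limits it in the same way.

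The Fc receptor-like genes divided. Fcrl5, an IgG-binding receptor with both activating and inhibitory motifs, was at 50.2, 40.7 and 40.5 CPM and 31.7 and 25.5 CPM in non-GC B-like cells and at 0.38 to 0.86 CPM in GC B-like cells, where 25 UMIs were counted. Its log2 fold change was -5.83 (SE 0.24, edgeR adjusted p = 4.50e-09). Fcrla, which stays inside the cell and binds immunoglobulin in the endoplasmic reticulum, went from 181, 196 and 221 CPM and 214 and 234 CPM to 86.2, 107 and 124 CPM and 132 and 130 CPM, a log2 fold change of -1.03 (SE 0.07, edgeR adjusted p = 3.64e-07). Fcrl1, which carries activating motifs, did not pass the test. Its GC levels were 39.8, 60.5 and 51.7 CPM and 52.4 and 55.8 CPM, above the same mouse's non-GC level in 5 of 5 mice (38.0, 16.6 and 49.7 CPM and 50.2 and 31.9 CPM), with a log2 fold change of 0.27 (SE 0.20, edgeR adjusted p = 0.292).

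Fcer2a was at 74.5, 62.9 and 109 CPM and 137 and 108 CPM in non-GC B-like cells. Its germinal center levels were 60.7, 38.9 and 35.3 CPM and 45.9 and 38.2 CPM, lower in every mouse and below all non-GC values (log2 fold change -1.38, SE 0.19, edgeR adjusted p = 6.37e-05). The plot of levels by class and mouse shows how these differences compare with the spread between mice.

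**Figure D1:**
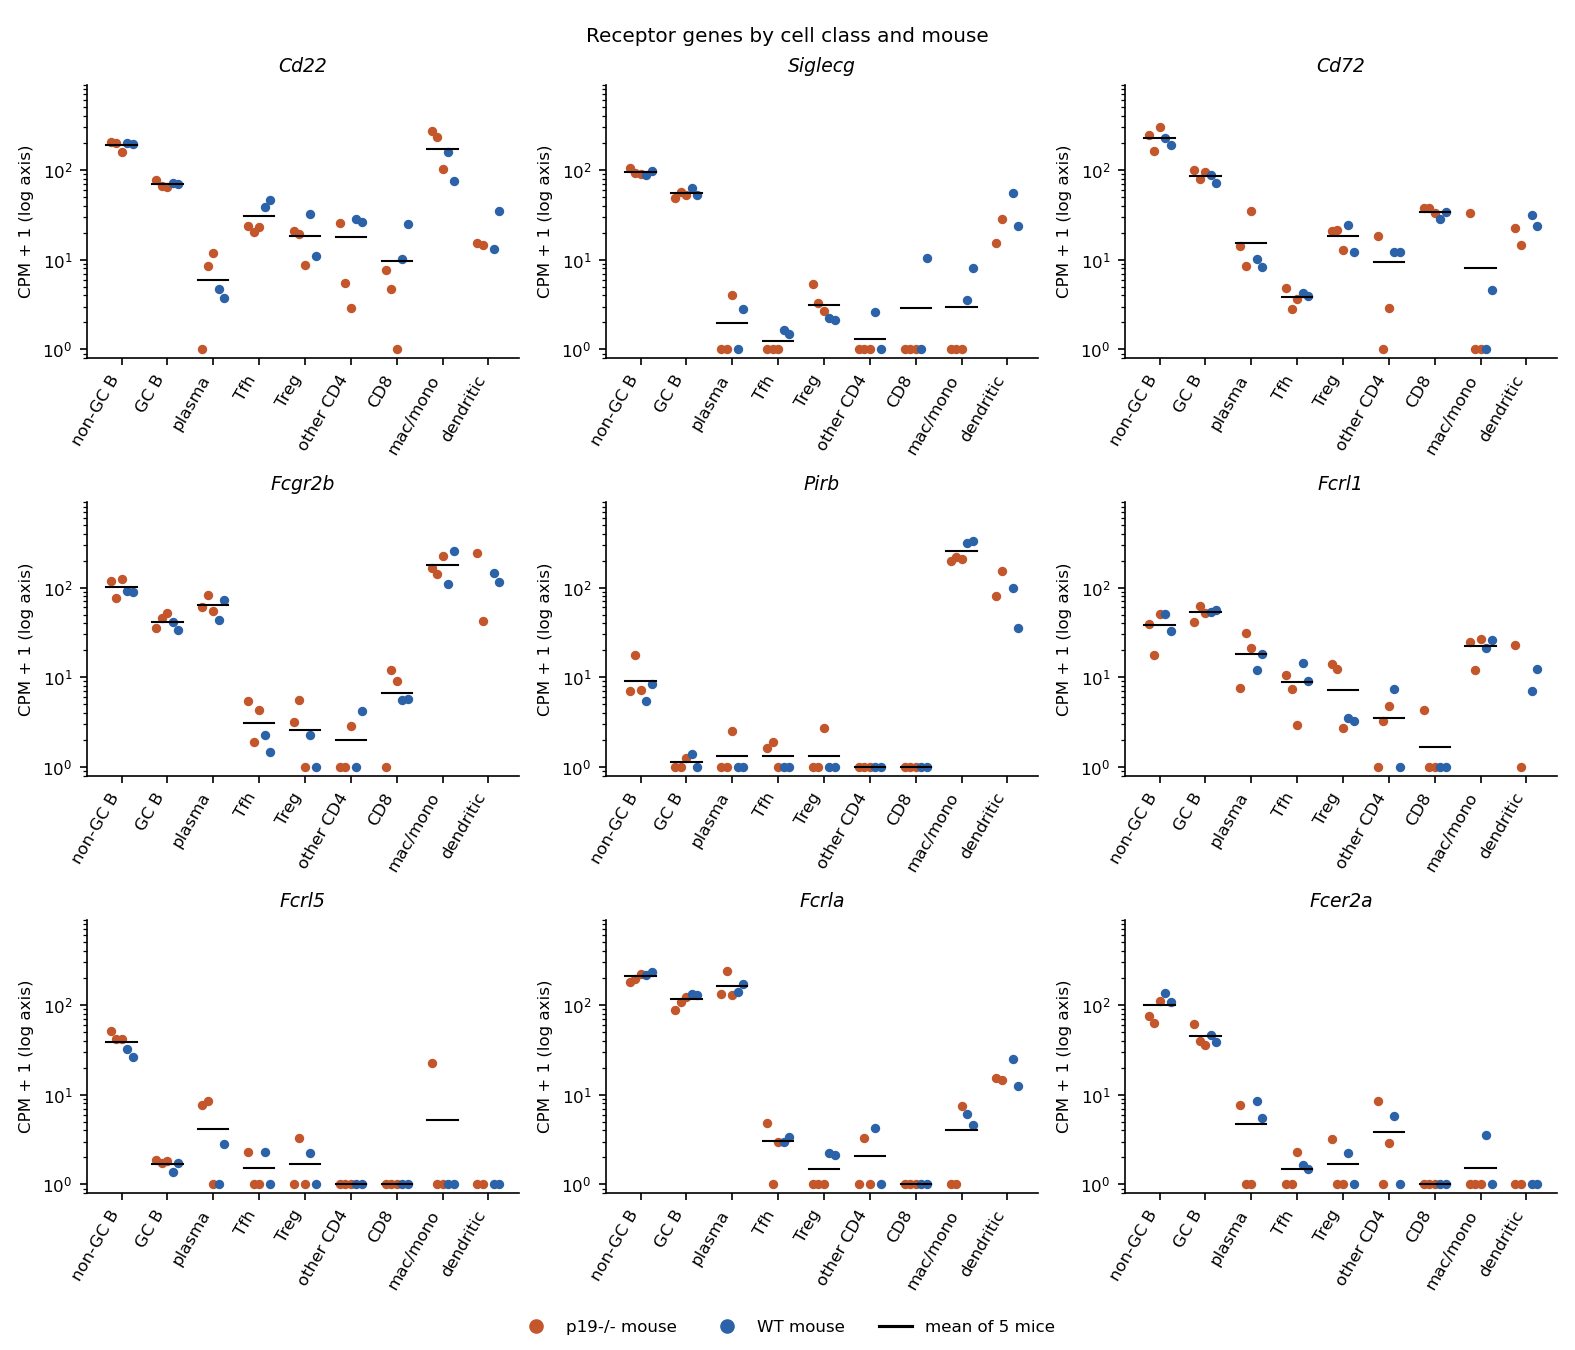
Level of each receptor in each cell class, as CPM plus 1 on a log axis; points are mice, colored by genotype, and the black line is the mean over mice with at least 10 cells of the class. Cd22, Cd72, Fcgr2b, Fcer2a and Siglecg stand higher in mature non-GC B-like than in GC B-like cells in every mouse, while Fcrl1 differs little between these classes.

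Genes around the receptors also differed. Of 10 tested ITIM effectors, 5 were lower in GC B-like cells and none passed as higher (median log2 fold change -0.36, against -0.02 over all genes tested). They included Lyn (153 ± 28.1 against 259 ± 18.6 CPM, log2 fold change -0.94), the phosphatase gene Ptpn6 (-0.82) and the adaptor genes Dok1 (-0.58) and Dok3 (-0.48). Both tested genes of the other inhibitory receptors, Ceacam1 (-3.58) and Btla (-1.54), were lower. Of 3 tested other Fc-binding genes, the IgM receptor gene Fcmr (141 ± 22.2 against 443 ± 47.5 CPM, -1.84) and the neonatal Fc receptor gene Fcgrt (-6.45) were lower.

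The enzymes that make or cut sialic acid ligands split, with 6 lower and 1 higher of 10 tested (median -0.48). Cmah, which makes the glycolyl form of sialic acid that mouse CD22 prefers, was at 11.8 ± 2.66 CPM in GC and 161 ± 26.5 CPM in non-GC B-like cells (log2 fold change -3.95, SE 0.15, edgeR adjusted p = 2.81e-09). St3gal1 (-4.04), St3gal6 (-2.43) and St8sia4 (-1.41), all sialyltransferase genes, were lower, and Nans, a sialic acid synthase gene, was higher (0.66). St6gal1, which makes the linkage CD22 binds, did not pass the test (198 ± 7.48 CPM in GC B-like cells). Of 6 ligand genes, 5 were lower, among them B2m (-1.32), H2-D1 (-0.97) and H2-K1 (-0.95), which form the class I ligand of PIR-B, and Ptprc (-0.59), which encodes the CD22 ligand CD45.

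Within the GC, B cells shuttle between a dark zone of division and a light zone where they meet antigen and Tfh cells. A zone score, dark zone genes less light zone genes, ordered the GC B-like cells of every mouse, and the outer 0.3333 on either side are called the dark end and the light end. The score included mitotic genes, so it did not separate zone from cell division. Of 7 receptors tested, 5 were called (31.9% of 8758 tested genes were called, 16.2% higher and 15.7% lower at the dark end). Fcer2a and Cd72 fell towards the dark end, Fcrla rose, and Fcgr2b and Cd22 were lower by smaller amounts.

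Fcer2a had 26.5, 13.4 and 17.9 CPM in p19-/- 1 to 3 and 21.9 and 14.9 CPM in WT 1 and 2 at the dark end. The light end had 85.3, 103 and 67.6 CPM and 102 and 83.2 CPM, and no value of either end overlapped the other. The log2 fold change, dark over light, was -2.16 (SE 0.13, edgeR adjusted p = 1.93e-07). Cd72 was likewise without overlap, at 92.9, 69.6 and 60.3 CPM and 71.4 and 60.3 CPM at the dark end and 127, 136 and 147 CPM and 132 and 107 CPM at the light end (log2 fold change -0.86, SE 0.10, edgeR adjusted p = 4.61e-05). Fcrla ran the other way, with 127, 137 and 139 CPM and 144 and 166 CPM at the dark end and 47.0, 87.0 and 118 CPM and 114 and 102 CPM at the light end. It was higher at the dark end in every mouse (log2 fold change 0.65, SE 0.13, edgeR adjusted p = 0.00195).

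Cd22 was lower at the dark end in 4 of 5 mice, with p19-/- 1 opposite: 84.6, 56.9 and 50.4 CPM and 59.1 and 60.9 CPM at the dark end, against 68.1, 90.9 and 78.8 CPM and 91.2 and 85.6 CPM at the light end. Its log2 fold change of -0.41 (SE 0.12, edgeR adjusted p = 0.0219) no longer passed without p19-/- 2 (adjusted p = 0.0619), p19-/- 3 (0.0949), WT 1 (0.0956) or WT 2 (0.0591). With mitotic genes left out of the score it was -0.20 (adjusted p = 0.125). Fcgr2b had 37.0, 40.2 and 42.4 CPM and 31.1 and 31.7 CPM at the dark end and 33.5, 84.1 and 62.9 CPM and 53.0 and 38.5 CPM at the light end, again with p19-/- 1 opposite. Its log2 fold change was -0.51 (SE 0.13, edgeR adjusted p = 0.0109), which became 0.059 without WT 1 and, with a log2 fold change of -0.15, 0.381 with the score free of mitotic genes.

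Siglecg (50.4 to 68.7 CPM at the dark end, 34.5 to 64.8 CPM at the light end) and Fcrl1 (42.3 to 52.9 CPM and 40.3 to 69.6 CPM) did not pass, at log2 fold changes of 0.15 and -0.04 (edgeR adjusted p = 0.386 and 0.867). With the score free of mitotic genes, both were higher at the dark end, Siglecg by 0.62 (edgeR adjusted p = 5.99e-04) and Fcrl1 by 0.67 (9.46e-05). Fcrl5 and Pirb were too low to be tested. Of 10 tested ITIM effectors, Dok3 (0.77) and Inppl1 (0.63) were higher at the dark end and Ptpn6 (-0.70), Dok1 (-0.65), Lyn (-0.43) and Grb2 (-0.17) lower. Btla (-0.60), Ceacam1 (-1.24), Fcmr (-0.67) and Sema4d (-0.68) were lower at the dark end too.

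**Figure D2:**
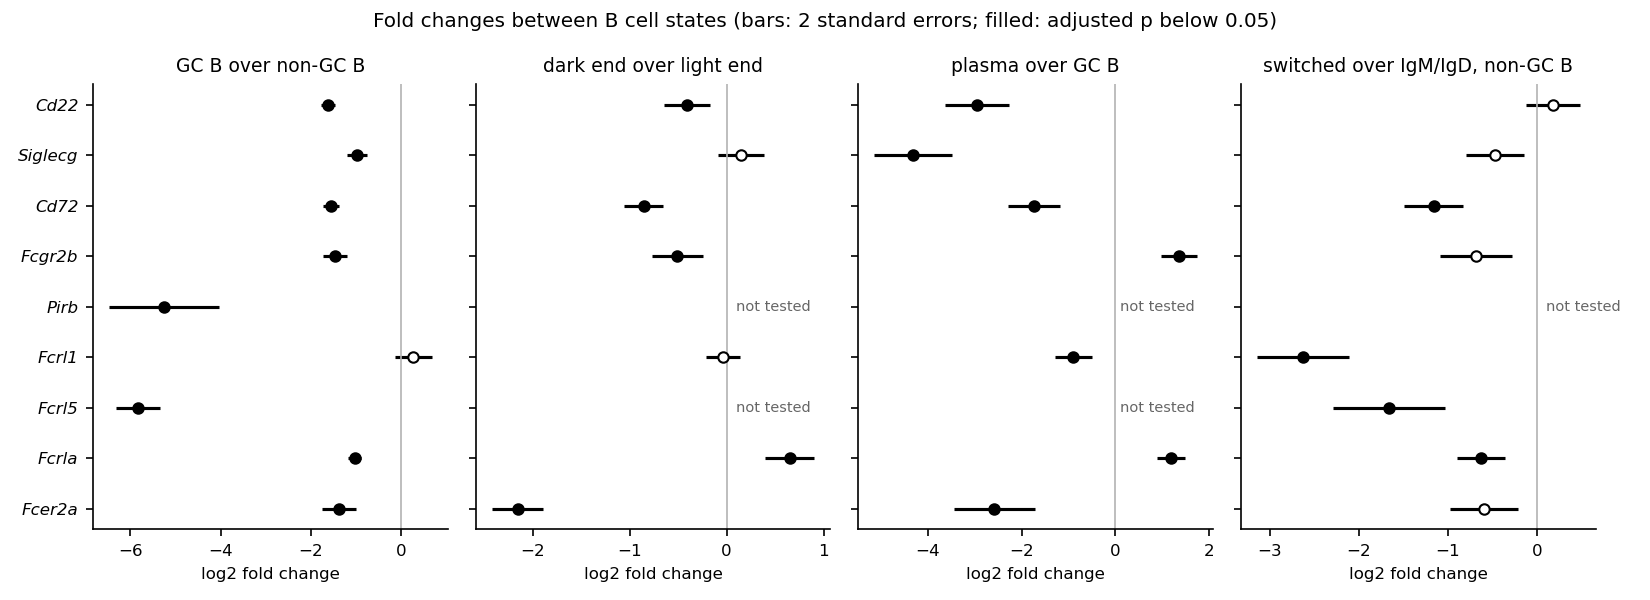
Log2 fold changes of the tested receptors in 4 comparisons, each with 2 SE on either side; filled points have an edgeR adjusted p under 0.05. Fcer2a and Cd72 lie left of 0 in the dark against light comparison and Fcrla right of it, and Fcgr2b and Fcrla change side between GC against non-GC and plasma against GC.

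Plasma cells, which secrete antibody and carry little surface antigen receptor, kept Fcgr2b and Fcrla and had little of the other B cell receptors. Of the 9 genes, 7 could be tested between plasma cell-like and GC B-like cells, and all 7 were called (40.9% of 8756 tested genes were called, 18% higher and 22.9% lower in plasma cell-like cells). Immunoglobulin transcripts took 32.2% to 52.4% of the UMIs of plasma cell-like cells, which lowers the CPM of all other genes there, so the fold changes below use TMM scaling.

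Cd22 had 0, 7.52 and 10.7 CPM in plasma cell-like cells of p19-/- 1 to 3 and 3.72 and 2.71 CPM in WT 1 and 2, below every GC B-like value (log2 fold change -2.95, SE 0.34, edgeR adjusted p = 5.08e-05). Siglecg was at 0 in 3 of 5 mice and at 3.07 CPM in p19-/- 3 and 1.81 CPM in WT 2 (log2 fold change -4.31, SE 0.42, edgeR adjusted p = 1.35e-05). Cd72 had 13.3, 7.52 and 33.8 CPM and 9.31 and 7.23 CPM, and its log2 fold change was -1.74 (SE 0.27, edgeR adjusted p = 4.89e-04). Fcer2a, at 0 to 7.45 CPM, fell by 2.59 on the log2 scale (edgeR adjusted p = 7.21e-04), and Fcrl1, at 6.66 to 30.1 CPM, by 0.90 (edgeR adjusted p = 0.00458).

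Fcgr2b was at 59.97, 82.7 and 53.7 CPM and 42.8 and 72.4 CPM, above the same mouse's GC level in 5 of 5 mice. The log2 fold change was 1.35 (SE 0.19, edgeR adjusted p = 2.47e-04). Fcrla was at 133, 241 and 129 CPM and 140 and 170 CPM, again higher than in GC B-like cells of each mouse (log2 fold change 1.18, SE 0.15, edgeR adjusted p = 9.62e-05). With immunoglobulin genes left out of the total, these levels were 102 ± 19.9 CPM for Fcgr2b and 268 ± 67.0 CPM for Fcrla, against 41.2 ± 7.49 and 117 ± 19.6 CPM in GC B-like cells (SD, n = 5). Plasma cell-like cells numbered only 18 and 14 in p19-/- 1 and 2.

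Markers of other cell types were counted in plasma cell-like cells. A T cell UMI was seen in 46.2% of the 117 plasma cell-like cells of p19-/- 3 (median 1087 UMIs) and in 11.5% to 23.9% in the other mice. Without such cells Fcgr2b and Fcrla were still called (log2 fold changes 1.25 and 0.95, edgeR adjusted p = 0.000612 and 0.00192), but in CPM each was above GC in 4 of 5 mice: Fcgr2b was at 47.6 against 51.0 CPM in p19-/- 3, and Fcrla at 98.0 against 112 CPM in p19-/- 2. The 8 macrophage or monocyte markers summed to 52.2 to 272 CPM in plasma cell-like, 3.52 to 14.7 CPM in GC B-like and 18221 to 21901 CPM in macrophage- or monocyte-like cells. In plasma cell-like cells 1 to 6 of the 8 were at 0, and Lyz2, the macrophage lysozyme gene, was at 0 in p19-/- 1 and 3 and at 1.86 to 15.4 CPM in the others. The part of the myeloid markers in the Fcgr2b level was not tested.

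Genes of the inhibitory pathway were lower as well. Of 10 ITIM effectors, 5 were lower in plasma cell-like cells and none passed as higher (median log2 fold change -0.96, all genes -0.13), led by Ptpn6 (-2.76), Grb2 (-1.54), Lyn (-1.40) and Inpp5d (-1.06). Sialic acid genes went up, 7 of 10 (median 1.17), with Cmah (3.76), Gne, the first enzyme of sialic acid synthesis (3.30), St3gal1 (3.10) and Cmas (1.61) ahead. B2m (2.20), H2-K1 (1.89) and H2-D1 (1.498) were higher, and Ptprc (-0.58), Sema4d (-0.54) and Btla (-1.57) lower. Fcer1g, the signalling chain of activating Fc receptors, was higher by 5.12 on the log2 scale with a wide spread, at 513, 90.2 and 6.14 CPM in p19-/- 1 to 3 and 13.0 and 53.4 CPM in WT 1 and 2.

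Mature non-GC B-like cells were divided by the constant gene of their BCR contig into IgM or IgD cells (40, 19 and 120 cells in p19-/- 1 to 3, 81 and 33 in WT 1 and 2) and class-switched, memory-like cells (31, 26 and 55, then 63 and 54). Cd72 and the 3 Fc receptor-like genes were lower in switched cells, whereas Cd22 did not differ detectably. The share called was 7.77% of 4284 tested genes, 4.25% lower in switched cells, and 4 of 8 tested receptors were called, all lower. Ccr6 was alike in both (99.6 ± 24.3 CPM switched, 98.9 ± 23.7 CPM IgM or IgD).

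Fcrl1 fell furthest, from 80.8, 39.4 and 82.4 CPM and 103 and 98.6 CPM in IgM or IgD cells to 11.4, 7.60 and 17.6 CPM and 19.3 and 8.004 CPM in switched cells. The groups did not overlap, and the log2 fold change was -2.63 (SE 0.26, edgeR adjusted p = 6.90e-05). Fcrl5 went from 93.0, 103 and 48.2 CPM and 62.8 and 67.2 CPM to 11.4, 22.8 and 35.1 CPM and 19.3 and 14.4 CPM, also without overlap (log2 fold change -1.66, SE 0.32, edgeR adjusted p = 0.00627). Cd72 went from 323, 387 and 432 CPM and 317 and 278 CPM to 165, 96.3 and 167 CPM and 179 and 155 CPM (log2 fold change -1.16, SE 0.16, edgeR adjusted p = 9.31e-04).

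Fcrla was lower by less, from 206, 260 and 275 CPM and 306 and 282 CPM to 143, 172 and 167 CPM and 156 and 216 CPM. Its log2 fold change of -0.63 (SE 0.13, edgeR adjusted p = 0.0133) did not pass without p19-/- 3 (adjusted p = 0.0615), without WT 1 (0.0685) or without the filter on low counts (0.0714). Fcgr2b, Fcer2a and Siglecg were each lower in switched cells in 5 of 5 mice but missed the threshold, at log2 fold changes of -0.69, -0.59 and -0.47 (edgeR adjusted p = 0.0559, 0.0753 and 0.0948). At a clustering resolution of 1.5, 7 receptors were called. Cd22 was at 150, 142 and 138 CPM and 199 and 206 CPM in IgM or IgD cells and at 208, 210 and 146 CPM and 189 and 192 CPM in switched cells, higher in p19-/- and lower in WT switched cells (log2 fold change 0.18, edgeR adjusted p = 0.531).

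Lyn (214 ± 15.9 against 332 ± 70.8 CPM, log2 fold change -0.59) was the only called gene of 8 tested ITIM effectors, and Fcmr (295 ± 35.1 against 706 ± 163 CPM, -1.23) was lower too. IgM or IgD cells of p19-/- 1 had 344 CPM of Sox4 and those of WT 1 had 55.4 CPM, and the part of the Sox4-positive cells in these differences was not tested beyond leaving out each mouse.

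**Figure D3:**
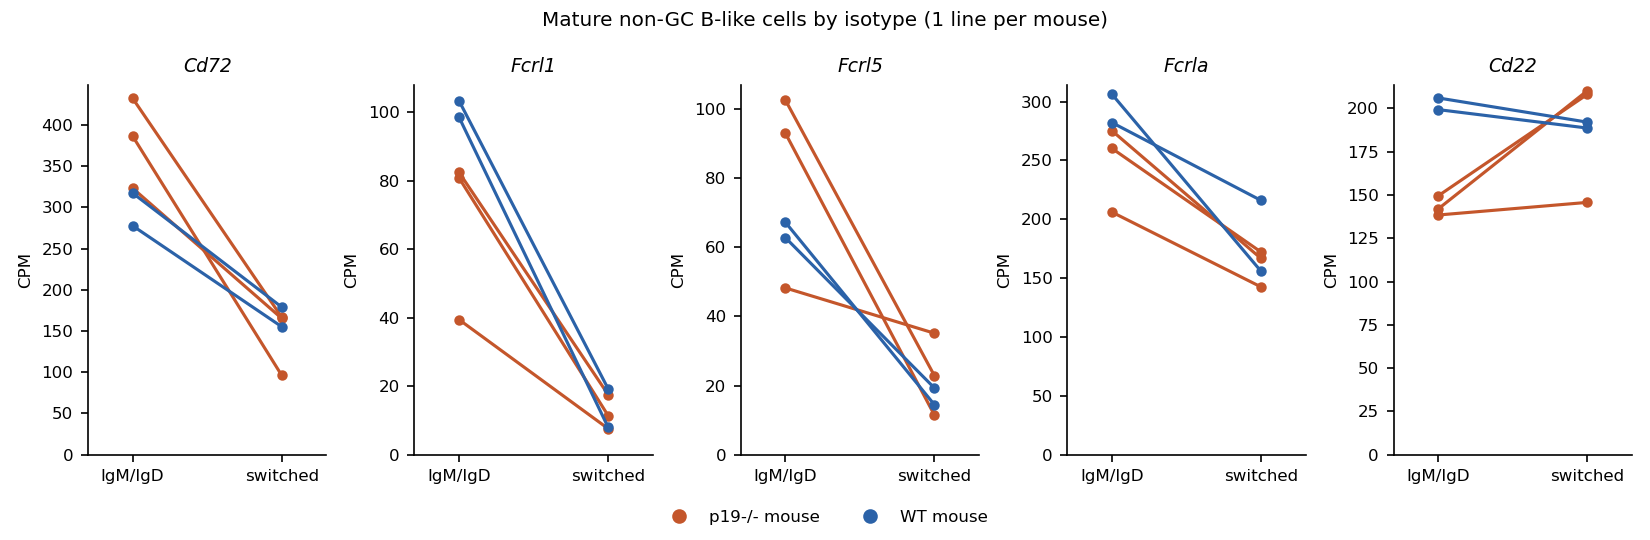
Levels of Cd72, Fcrl1, Fcrl5, Fcrla and Cd22 (CPM) in IgM or IgD and in class-switched mature non-GC B-like cells, with 1 line per mouse colored by genotype. The lines of Fcrl1, Fcrl5, Cd72 and Fcrla fall in every mouse, and those of Cd22 do not share a direction.

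The same division within the GC, given as values with no test, showed the pattern for Cd72 and not for Fcrl1. Cd72 was at 119, 142 and 169 CPM and 133 and 172 CPM in IgM or IgD GC B-like cells and at 97.4, 73.0 and 57.7 CPM and 82.6 and 50.4 CPM in switched ones, so every IgM or IgD value was above every switched value. Fcrl1 overlapped, at 30.5 to 67.8 CPM and 35.0 to 60.2 CPM. Every switched GC value of Fcrl1 was above every switched non-GC value, while the IgM or IgD ranges of the classes overlapped. Fcrla was higher in IgM or IgD GC B-like cells of each mouse (96.9 to 171 CPM, against 83.9 to 125 CPM). Only 16 GC B-like cells of p19-/- 1 were IgM or IgD.

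A separate B cell cluster was led by Sox4 and Pcp4 and held 309, 74 and 43 cells of p19-/- 1 to 3 and 38 and 32 cells of WT 1 and 2. Its defining genes were both counted there only in p19-/- 1: Sox4 was at 483, 0 and 242 CPM and 17.6 and 0 CPM, and Pcp4 at 110, 42.1 and 0 CPM and 0 CPM in both WT mice. In p19-/- 1, 222 of the 309 cells were IgM or IgD. The cluster is therefore mainly that of 1 library, and its values in the other mice rest on few cells. Its cells had a median of 3800 UMIs in p19-/- 1 and of 626 to 1187.5 UMIs in the other mice. A B cell UMI was seen in 96.1% of its cells in p19-/- 1 and in 71.9% to 75.7% in the others. Whether the mice share 1 cell state in this cluster was not tested.

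Against mature non-GC B-like cells, 4 of 8 tested receptors were lower in the Sox4 Pcp4 cluster (16.3% of 5766 tested genes were called, 10.3% lower). Cd22 had 21.2, 50.5 and 17.3 CPM and 8.80 and 86.1 CPM, below every non-GC value (log2 fold change -2.54, SE 0.35, edgeR adjusted p = 1.29e-04). Fcer2a had 23.4, 25.3 and 69.2 CPM and 26.4 and 0 CPM (log2 fold change -1.58, SE 0.36, edgeR adjusted p = 0.00576). Siglecg, at 17.2 to 52.8 CPM, fell by 1.45 (edgeR adjusted p = 0.00411), but not past the threshold at a clustering resolution of 1.5 (adjusted p = 0.0587).

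Fcgr2b was at 56.6, 50.5 and 34.6 CPM and 26.4 and 17.2 CPM (log2 fold change -1.09, SE 0.32, edgeR adjusted p = 0.0245), a call lost without p19-/- 3 (adjusted p = 0.064), WT 1 (0.0595) or WT 2 (0.0678) and at a clustering resolution of 1.5 (0.39). The Fc receptor-like genes did not pass: Fcrl5 was at 75.0, 84.2 and 51.9 CPM and 17.6 and 17.2 CPM, Fcrl1 at 25.3 to 61.6 CPM and Fcrla at 96.8 to 156 CPM. Cd72, between 52.8 and 346 CPM, did not pass either (log2 fold change -0.83 and adjusted p = 0.0965 in edgeR), and Pirb had 0 UMIs in the cluster. Of the lists, Cmah (-2.88), St8sia4 (-2.49), Neu1 (-2.31), Btla (-2.12), Ceacam1 (-1.97), Dok3 (-1.71), Fcmr (-1.25) and Inpp5d (-1.18) were among those lower.

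In T cells Cd22, Cd72, Fcrl1 and Fcgr2b were counted in the Tfh-like cells of every mouse. Tfh-like cells had Cd22 at 23.0, 19.2 and 22.2 CPM in p19-/- 1 to 3 and 38.1 and 45.8 CPM in WT 1 and 2. Relative to the GC B-like level of the same mouse, Cd22 in Tfh-like cells was 42.8 ± 16.3% (SD, n = 5). The same ratio was 1.39 ± 1.71% for Cd79a, 1.17 ± 0.995% for Cd79b, 1.499 ± 2.00% for Ms4a1, 9.41 ± 2.50% for Pax5, 0.396 ± 0.543% for Siglecg and 1.87 ± 1.61% for Fcrla. It was 3.35 ± 0.748% for Cd72, 5.22 ± 4.75% for Fcgr2b and 15.8 ± 9.24% for Fcrl1. The highest mouse of Fcrl1 (25.8%) was below the lowest mouse of Cd22 (29.7%). Fcrl5 did not follow this order: its ratio ran from 0 to 338%, on 0 or 2 UMIs per mouse in Tfh-like cells and 25 UMIs in all in GC B-like cells.

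Cells with and without B cell RNA were also separated. Tfh-like cells with no UMI of the B cell genes checked (1783 of 1973 cells) had 32.1 CPM of Cd22 over all mice. The 190 others had 24.2 CPM, on 19 UMIs. By mouse, WT 1 went the other way (37.9 CPM without and 39.8 CPM with a B cell UMI). WT 2 (45.9 and 43.9 CPM) and the p19-/- mice were lower in cells with a B cell UMI. After thinning each cell at random to 2000 UMIs, a Cd22 UMI was seen in 5.37% of 1694 Tfh-like cells (exact binomial 95% interval 4.35 to 6.55%), 2.90% of Treg-like, 2.56% of other CD4 T-like and 0.529% of CD8 T-like cells, and in 14.7% of GC B-like cells. Unthinned shares were 7.60% of Tfh-like cells (median 3553 UMIs) and 49.2% of GC B-like cells (median 9614 UMIs). For comparison, a Cd79a UMI was seen in 2.77% of thinned Tfh-like and 94.04% of thinned GC B-like cells. Intervals cover counting error only.

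Cd22 differed between T cell states. Other CD4 T cells, Treg-like cells included, had 22.2, 11.4 and 5.84 CPM and 29.4 and 16.5 CPM, below the Tfh-like level of the same mouse in 5 of 5 mice though the groups overlapped (log2 fold change 0.85, SE 0.22, edgeR adjusted p = 0.00720). The call did not hold without WT 2 (adjusted p = 0.0906), without mouse as a block (0.115) or with DESeq2 (0.0951). Taken alone, other CD4 T-like cells had 24.9, 4.52 and 1.87 CPM and 27.3 and 25.4 CPM of Cd22. Their level was above the Tfh-like level in p19-/- 1 and below it in the other mice. Within the Tfh-like class, the cluster led by Sostdc1, Ascl2, Il21 and Il4, genes of mature Tfh cells, had 37.7, 21.8 and 33.4 CPM and 55.6 and 61.6 CPM. The cluster led by Tcf7 had 10.6, 16.2 and 9.63 CPM and 24.2 and 26.0 CPM, lower in each mouse. In CD8 T-like cells 10 UMIs of Cd22 were counted.

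**Figure D4:**
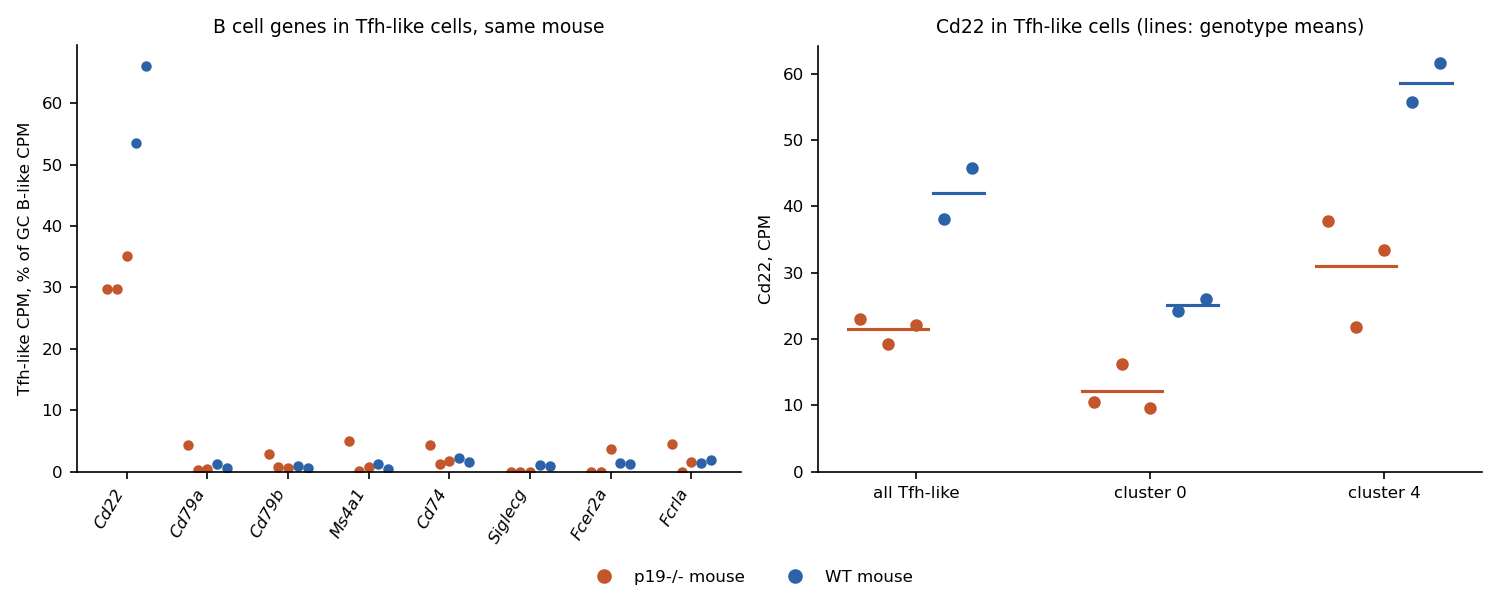
Left, level in Tfh-like cells as a percent of the level in GC B-like cells of the same mouse for Cd22 and 7 other B cell genes, with 1 point per mouse; right, Cd22 (CPM) in all Tfh-like cells and in their 2 clusters, with lines at genotype means. Cd22 lies above the other genes plotted, and WT mice lie above p19-/- mice in each Tfh-like group.

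Cd72 was distributed the other way. It had 3.83, 1.83 and 2.61 CPM and 3.23 and 2.89 CPM in Tfh-like cells. Other CD4 T cells, Treg-like cells included, had 18.7, 10.3 and 8.77 CPM and 18.2 and 11.2 CPM, with no overlap (log2 fold change -2.18, SE 0.29, edgeR adjusted p = 8.01e-06). Treg-like cells had 11.3 to 23.6 CPM of Cd72 and CD8 T-like cells 27.6 to 36.8 CPM. Without Treg-like cells, the other CD4 T-like class had 17.4, 0 and 1.87 CPM and 11.2 and 11.1 CPM. That class overlapped the Tfh-like values and was below the Tfh-like level of the same mouse in p19-/- 2 and p19-/- 3. Fcrl1, the last receptor that could be tested, did not pass (7.94 ± 4.25 against 4.34 ± 2.57 CPM, edgeR adjusted p = 0.0767). Of 3 receptors tested 2 were called, where 20.1% of 8861 tested genes were, 9.49% higher and 10.6% lower.

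Around them, 4 of 11 ITIM effectors were higher in Tfh-like cells, Dok3 (2.34), Ptpn11, which encodes SHP-2 (1.02), Ptpn6 (0.49) and Csk (0.45), and 4 were lower, Dok2 (-1.13), Lyn (-0.86), Dok1 (-0.58) and Inpp5d (-0.33). Lyn was at 8.73 ± 3.87 CPM in Tfh-like cells. The inhibitory receptor genes Btla (1.01), Pdcd1 (0.63) and Cd5 (0.21) were higher and Cd200r1 lower (-1.30). St6gal1 (0.56) and St3gal1 (0.54), which sialylate glycoproteins, and Ptprc (0.46) were higher as well.

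Myeloid cells carried Fcgr2b and Pirb, and Cd22 was high in cluster 15. In dendritic cell-like cells Cd22 was at 14.5 and 13.7 CPM in p19-/- 1 and 2 and at 12.1 and 34.1 CPM in WT 1 and 2, on 1 to 3 UMIs each. Fcgr2b was at 165, 142 and 225 CPM and 110 and 255 CPM in macrophage- or monocyte-like cells and at 101 to 177 CPM in neutrophil-like cells. Pirb was at 197, 219 and 206 CPM and 311 and 334 CPM in macrophage- or monocyte-like cells, 85.2 to 280 CPM in neutrophil-like cells and 34.1 to 151 CPM in dendritic cell-like cells, each above every B cell value. Siglecg and Fcer2a were at 0 to 7.17 CPM in macrophage- or monocyte-like cells.

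The 162 cells of cluster 15, led by the monocyte genes Lyz2, Ace, Ear2 and Ccr2, held Cd22 at 447, 507 and 185 CPM in p19-/- 1 to 3 and 344 and 127 CPM in WT 1 and 2. A Cd22 UMI was seen in 61.7% of them. Their Cd79a level was 26.3, 0 and 11.6 CPM and 17.8 and 6.07 CPM, so the B cell gene was near background where Cd22 was above its GC B-like level. The macrophage clusters led by C1qb and Marco and by Vcam1 and Spic had 4.41 and 9.36 CPM of Cd22 over all mice. Pirb was higher in the Vcam1 and Spic cluster (402, 530 and 314 CPM and 548 and 679 CPM) than in cluster 15 (158, 133 and 173 CPM and 131 and 182 CPM) in every mouse. These cluster values are given with no test.

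**Figure D5:**
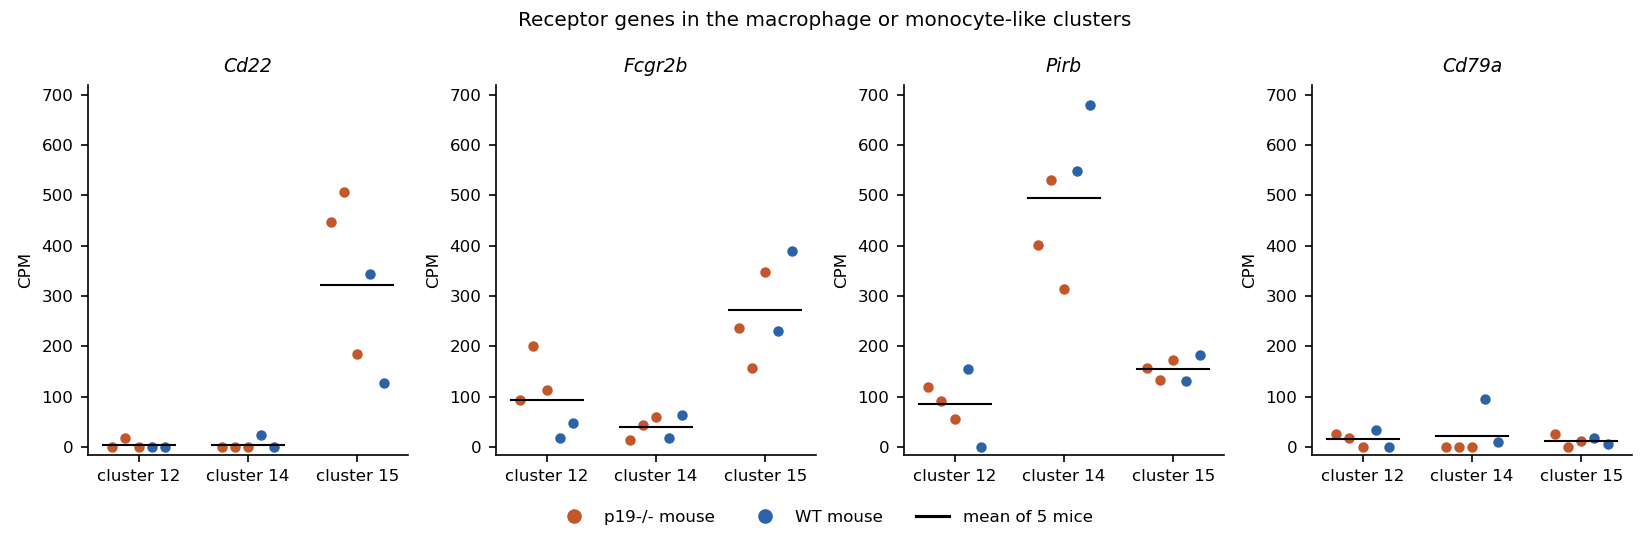
Levels (CPM) of Cd22, Fcgr2b, Pirb and Cd79a in 3 macrophage- or monocyte-like clusters, with points for mice colored by genotype. Cd22 is high in the Lyz2 and Ace cluster and near 0 in both macrophage clusters, Pirb is highest in the Vcam1 and Spic cluster, and Cd79a is low in all 3.

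Between genotypes, the receptors of B cells did not pass the test, and Cd22 in Tfh-like cells did. In GC B-like cells 0 of 7 tested receptors were called by edgeR, where 0.0189% of 10557 tested genes were (2 genes, with 904 at an unadjusted p under 0.05, and 55 genes by DESeq2). Log2 fold changes, p19-/- over WT, ran from -0.33 for Fcrla to 0.22 for Fcgr2b. Fcrla was the only tested receptor whose genotypes did not overlap there, at 86.2, 107 and 124 CPM against 132 and 130 CPM (edgeR adjusted p = 0.590). The share of all tested genes without overlap was not worked out, so the lack of overlap does not set Fcrla apart. The approximate 95% interval was -0.29 to 0.14 for Cd22 and -0.40 to 0.09 for Siglecg on the log2 scale.

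In mature non-GC B-like cells 0 of 8 were called (0.0822% of 7300 tested genes were, 6 genes, with 364 at an unadjusted p under 0.05). Fcer2a was lower in p19-/- mice (82.2 ± 24.2, n = 3, against 122 ± 19.9 CPM, n = 2; log2 fold change -0.56, edgeR adjusted p = 0.954), with p19-/- 3 and WT 2 at 109 and 108 CPM. Fcrl5 was at 50.2, 40.7 and 40.5 CPM against 31.7 and 25.5 CPM, without overlap (log2 fold change 0.58, edgeR adjusted p = 0.954). Here too the share of all tested genes without overlap was not worked out, so Fcrl5 is not set apart by it. A test of whether the genotype difference itself differed between GC and non-GC B-like cells called 0 of 9 receptors (0.0204% of 9826 tested genes called, 334 at an unadjusted p under 0.05), each with an edgeR adjusted p of 1.

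In Tfh-like cells, Cd22 was lower in p19-/- mice, 21.4 ± 1.96 (n = 3) against 41.9 ± 5.44 CPM (n = 2), and each p19-/- mouse was below both WT mice. The log2 fold change was -0.94 (SE 0.19, edgeR adjusted p = 0.0308), where 0.706% of 9064 tested genes were called and 0.287% were lower, and of 2 tested receptors Fcrl1 was not (log2 fold change -0.80, edgeR adjusted p = 0.642). The direction was the same in both Tfh-like clusters, at 12.1 ± 3.54 against 25.1 ± 1.24 CPM in the Tcf7 cluster and 31.0 ± 8.26 against 58.6 ± 4.24 CPM in the Sostdc1 and Ascl2 cluster. The call was lost when p19-/- 2 (adjusted p = 0.139), p19-/- 3 (0.0913), WT 1 (0.0913) or WT 2 (0.416) was left out, with sex as a covariate (0.0878), with DESeq2 (0.439), at a mitochondrial limit of 5% (0.0529) and in cells free of B cell UMIs (0.0554). No gene of the 5 surrounding lists was called between genotypes in GC B-like, mature non-GC B-like or Tfh-like cells.

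Across 46 sums of a class in a mouse (11 classes), the genes whose log2 levels ran most alike with each receptor were named from all genes, as a description. Siglecg followed Bcl11a, a B lineage factor gene (r = 0.931), and Fcrla followed Rasgrp3 (0.932), Cd24a (0.924) and Cd79b (0.922). Fcer2a was closest to Chst3 (0.921), Ms4a1, which encodes CD20 (0.887), and Fcmr (0.867), and Fcgr2b to Spi1, which encodes PU.1 (0.920). Fcrl1 ran with Zfp706 (0.838), Dok3 (0.833) and Btk (0.832), and Fcrl5 with Serpinb1a (0.791). Pirb ran with Gm14548 (0.977), P2ry13 (0.969) and Lilra6 (0.967). For Cd72 the nearest gene was H2-Oa (0.819), and for Cd22 it was Bank1 (0.774), a B cell adaptor gene. The sums of a mouse share a library, and classes differ in depth.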

How the data were processed

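The 9 receptors and the surrounding gene lists were chosen with earlier results of these data known. Per the labels' protocols, libraries were made with the 10x 5′ V(D)J kit; per the submitters' processing notes, Cell Ranger 3.0.2 and STAR were run against mm10. The authors deposited UMI counts per gene and barcode, not normalized, and BCR contig tables with UMI counts and constant gene calls, whose other text columns (barcodes, genes, chains) give names. The 5 mice were the replicates; the labels give no capture day.

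Barcodes with over 10% mitochondrial UMIs (1907 of 11355) or under 200 genes were left out, and 186 doublets (1.99%) were removed with Scrublet in scanpy 1.11.5 by the number expected at 0.8% per 1000 barcodes, since its automatic threshold marked 0.299%. Cells were scaled to 10000 UMIs, and 22 clusters were formed with leidenalg 0.10.2 (Python 3.11.15, resolution 1, 20 neighbours, 20 components of 2000 variable genes). Receptors, list genes, immunoglobulin and T cell receptor genes, and genes that mark sex took no part in clustering. Clusters were named from marker lists, and those under 0.3333 of their samples' median UMIs without such markers were set aside (106 cells).

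Counts were summed per mouse and class with at least 10 cells and compared by the quasi-likelihood test of edgeR 4.0.16 under R 4.3.3, after filterByExpr and TMM scaling. P-values were adjusted over all genes tested by the Benjamini-Hochberg method, and 0.05 was the threshold. Comparisons within mice had mouse as a block. Comparisons of genotype had none, because equal numbers name different mice. Correlations of same-numbered mice were -0.09 and 0.01 in GC B-like, 0.06 and 0.1 in mature non-GC B-like and 0.01 and -0.03 in Tfh-like cells. With 2 WT mice the value against WT 1 mirrors that against WT 2, so this check is weak. An SE is the fold change divided by the root of F. Counts were fitted without a floor, and a gene at 0 is printed as 0 CPM. A level of 3 counts, in CPM, was taken as the floor of a class in a mouse. Procedures were tested on simulated data. For genotype, a 2-fold change was recovered in 64.2% of changed genes in GC B-like, 17.9% in mature non-GC B-like and 68.7% in Tfh-like cells. For the interaction it was 14.9%. False calls were 23 of 143, 5 of 67 and 17 of 149 calls in these classes, and 8 of 57 for the interaction.

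Alternatives were scaling (RLE), DESeq2 1.42.0, no filter on low counts, a 5% mitochondrial limit, resolution 1.5, the block, sex, other zone ends and leaving out each mouse. Counts without immunoglobulin genes, plasma cells without a T cell UMI, and all alternatives for the Sox4 Pcp4 cluster, were chosen after seeing the data. Named were all 9 receptors, up to 4 called genes per list and direction, and the 3 genes most alike to each receptor (Pearson's r of log2 of CPM plus 1, at least 20 CPM and 20 cells).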

Additional observations from a re-analysis of the deposited data

Results flagged for a closer look

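In 6 of 75 groups of 5 mice, a single mouse stood apart from the other 4 by more than 0.71 of the whole range (Dixon's 95% critical value), where chance gives about 5% of groups. In mature non-GC B-like cells Cd22 was lowest in p19-/- 3, at 159 CPM against 194 to 204 CPM. Fcrl1 at the dark-zone end was lowest in p19-/- 1, at 42.3 CPM against 51.9 to 52.9 CPM. For switched non-GC B-like cells, Cd72 was lowest in p19-/- 2, at 96.3 CPM against 155 to 179 CPM. Among IgM or IgD non-GC B-like cells, Fcer2a was highest in WT 1, at 214 CPM against 88.9 to 116 CPM, and Siglecg was highest in p19-/- 1, at 141 CPM against 96.4 to 108 CPM. Siglecg in IgM or IgD GC B-like cells was lowest in p19-/- 1, at 22.2 CPM against 48.2 to 57.0 CPM, from 8 UMIs.

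In 2 of 48 differences between classes with at least 50 UMIs, every p19-/- mouse moved one way and both WT mice the other. Whether the genotypes differ in this was not tested. The number that chance alone would give was not worked out, so the count sets neither of the 2 apart. Switched minus IgM or IgD non-GC B-like cells, Cd22 differed by 44.7 CPM on average in p19-/- mice (7.29 to 68.3 CPM) and by -12.3 CPM in WT mice (-14.0 and -10.7 CPM). From mature non-GC B-like to Sox4 Pcp4 B cells, Fcrl5 differed by 26.6 CPM in p19-/- mice (11.4 to 43.5 CPM) and by -11.2 CPM in WT mice (-14.1 and -8.29 CPM), where 2 and 1 UMIs were counted in the Sox4 Pcp4 cluster.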

How the results depend on the processing

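Each result for a single receptor was rerun under each setting, and the counts here are of reruns, so a result is counted many times. For results that passed the test, 232 reruns under other settings kept their side of the threshold and 13 lost it. With each mouse left out, 139 reruns kept it and 15 lost it. None of these reruns changed direction. The 33 reruns that did (10 under other settings, 23 with a mouse left out) were of results that had not passed.

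Counts of called genes moved more. In GC B-like cells the 2 genes between genotypes became 224 without the filter on low counts, 55 with DESeq2, 19 with a replicate block, 8 with sex and 21 without immunoglobulin genes, and 0 to 12 with a mouse left out. In mature non-GC B-like cells 6 became 80 without the filter, 2 at resolution 1.5, 120 with the replicate block and 11 with sex (3 to 10 with a mouse left out). The block, where 1 receptor (Fcer2a, log2 fold change -0.87, adjusted p = 0.0157) was called, pairs mice that share only a number. In Tfh-like cells 64 became 236 without the filter and 213 with the replicate block (27 to 62 with a mouse left out), and called receptors went from 1 to 0 at 5% mitochondrial UMIs, with DESeq2, with sex and in cells without a B cell UMI (0 to 1). For the interaction 2 became 9 with RLE, 73 without the filter, 6 at 5% mitochondrial UMIs and 1 without immunoglobulin genes (3 to 13). Dark against light, 2792 became 1652 with DESeq2, with 3 to 5 receptors called when a mouse was left out. Tfh-like against other CD4 T-like, 1778 became 865 with DESeq2, with 1 receptor called there and 1 without the replicate block (1 to 3). Switched against IgM or IgD, 333 became 721 without the filter, 189 with DESeq2 and 513 without immunoglobulin genes (121 to 319), and 7 receptors were called at resolution 1.5. In the Sox4 Pcp4 cluster 938 became 1719 without the replicate block (458 to 899), and 2 receptors were called at resolution 1.5.

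Log2 fold changes that turned were these. Genotype in GC B-like cells: Fcer2a was -0.0032 at 5% mitochondrial UMIs, and with a mouse left out Fcer2a ran from -0.21 to 0.20, Fcrl1 from -0.24 to 0.0177 and Siglecg from -0.30 to 0.0022. Genotype in mature non-GC B-like cells: Siglecg was -0.072 at resolution 1.5 and -0.0284 without cells with a T cell UMI, Cd22 was 0.0029 and Cd72 -0.0903 with the replicate block, and 0.0032 and -0.0684 with sex. With a mouse left out there, Siglecg ran from -0.0657 to 0.10, Fcrl1 from -0.58 to 0.20, Cd22 from -0.17 to 0.0085 and Cd72 from -0.0639 to 0.36. Dark against light, Fcrl1 was 0.67 without mitotic genes in the score and -0.0874 to 0.0258 with a mouse left out. For the interaction, Fcgr2b was 0.0479 at 5% mitochondrial UMIs and Cd72 -0.0021 without immunoglobulin genes, and with a mouse left out Cd72 ran from -0.0869 to 0.22, Fcgr2b from -0.21 to 0.19, Fcrl5 from -0.58 to 0.60, Fcrl1 from -0.33 to 0.41, Cd22 from -0.0169 to 0.13, Siglecg from -0.40 to 0.10 and Pirb from -3.76 to 2.33. The cause was not tested.

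Shares of cells with a Cd22 UMI were 49.2% unthinned and 7.24% at 1000 UMIs in GC B-like, 7.60% and 2.77% in Tfh-like, 4.36% and 0.912% in other CD4 T-like, and unthinned 5.65% in Treg-like and 4.39% in CD8 T-like cells. Depth limits Fcrl5 and Pirb in GC B-like cells and every receptor in the 14 to 18 plasma cell-like cells of p19-/- 1 and 2. With 3 mice against 2, a receptor that missed the threshold is not shown to be equal between genotypes.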
